A study of Mus musculus with 2 samples.

Results

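Histone-rich S phase cells were taken from 2 single-cell RNA libraries of cultured mouse hematopoietic stem cells (HSC). For each cell the deposited natural-log values of Hist1h1a, Hist1h1b, Hist1h2ae and Hist1h2ap were averaged, and the cells with the top 10% of this score among all pooled cells were the members. They numbered 1856 of 18560 cells, of which 770 came from the vehicle library of 8708 cells and 1086 from the library of 9852 cells treated with deferoxamine (DFO), a compound that binds iron. Lineage-negative, Sca-1+, c-Kit+, CD150+, CD48- cells from the marrow of 8 pooled C57/B6 mice, 6 to 8 weeks old, were held in liquid culture with stem cell factor at 100 ng/ml and thrombopoietin at 50 ng/ml. One culture received DFO at 10 µM and the other sterile water, both for 48 h. Each condition is 1 library, from 20000 cells loaded, and the series' text describes 1 pool of mice without tying each library to it. Every cell had therefore been sorted as a stem cell and then stimulated by both cytokines, in the vehicle culture as in the DFO culture. With 1 library per condition, replicate error could not be measured for any difference and no test was made. Intervals are 95% limits for counting error only, and do not cover variation between cells or between cultures. Those of shares are exact Clopper-Pearson. Those of log2 differences between libraries come from the exact binomial share of 1 library in the gene's molecules. They leave out the 1 CPM that is added in the point values, so a point value need not lie in the middle of its interval.

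Replication-dependent histone genes lie in clusters, and their transcripts end in a stem-loop in place of a poly(A) tail. They are made in bulk while DNA is being copied, because new DNA has to be wrapped in new nucleosomes, and they are degraded when replication stops. The core histones H2A, H2B, H3 and H4 form the nucleosome, and the linker histones H1 bind the DNA that enters and leaves it. Slbp binds the stem-loop, and Npat, a substrate of cyclin E and Cdk2, drives transcription of the clusters. Variant histones from genes outside the clusters carry poly(A) tails, and most are made through the whole cycle. The 10x chemistry used here primes on poly(A), so it sees the clustered genes only as far as their transcripts, or A-rich stretches in them, are primed. Levels are therefore compared between cells for the same gene and never between genes. DFO is known to inhibit ribonucleotide reductase, an enzyme with an iron centre that supplies deoxynucleotides.

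All 5 linker histone genes of the clusters were higher in the histone-rich cells of both libraries, and 2 of them are in the score, so the 250 bases before their start sites are shown. The sequences are RefSeq's on GRCm38.p6, 5′ to 3′ along the gene's own strand, and all 5 genes lie in 1 cluster on chromosome 13. Capitals mark AAACACA (the H1 box), CCAAT and TATAA, each searched on both strands.

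Hist1h1a: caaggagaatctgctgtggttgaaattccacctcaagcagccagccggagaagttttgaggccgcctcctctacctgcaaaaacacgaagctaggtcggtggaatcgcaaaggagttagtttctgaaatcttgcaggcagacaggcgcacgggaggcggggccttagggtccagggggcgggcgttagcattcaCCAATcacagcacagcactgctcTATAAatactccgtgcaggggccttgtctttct

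Hist1h1b: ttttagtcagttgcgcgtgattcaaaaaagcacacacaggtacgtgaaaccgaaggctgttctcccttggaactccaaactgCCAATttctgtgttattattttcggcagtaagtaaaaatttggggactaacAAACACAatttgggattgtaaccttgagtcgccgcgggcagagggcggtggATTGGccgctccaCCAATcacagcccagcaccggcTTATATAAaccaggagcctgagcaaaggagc

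Hist1h1c: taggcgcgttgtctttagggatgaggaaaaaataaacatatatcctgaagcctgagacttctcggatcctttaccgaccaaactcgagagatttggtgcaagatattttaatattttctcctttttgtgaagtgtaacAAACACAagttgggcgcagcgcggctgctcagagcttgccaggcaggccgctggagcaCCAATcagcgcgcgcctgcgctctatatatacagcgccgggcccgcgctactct

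Hist1h1d: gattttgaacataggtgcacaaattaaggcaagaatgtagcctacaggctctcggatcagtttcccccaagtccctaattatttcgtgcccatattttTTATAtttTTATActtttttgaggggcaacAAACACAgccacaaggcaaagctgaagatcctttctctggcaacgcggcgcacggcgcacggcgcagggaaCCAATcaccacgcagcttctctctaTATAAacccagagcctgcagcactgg

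Hist1h1e: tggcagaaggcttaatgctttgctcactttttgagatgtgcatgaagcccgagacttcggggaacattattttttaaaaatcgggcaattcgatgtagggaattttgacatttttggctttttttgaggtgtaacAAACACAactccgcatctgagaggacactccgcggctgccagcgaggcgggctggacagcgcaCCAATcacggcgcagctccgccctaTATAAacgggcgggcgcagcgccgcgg

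The windows are chr13:23763418-23763667 (+) for Hist1h1a, chr13:21780626-21780875 (-) for Hist1h1b, chr13:23738557-23738806 (+) for Hist1h1c, chr13:23554782-23555031 (+) for Hist1h1d and chr13:23622559-23622808 (-) for Hist1h1e. AAACACA was present in 4 of the 5, between 122 and 112 bases before the start site, and was not in these letters in Hist1h1a. CCAAT read in the direction of the gene began 51 to 56 bases before the start site in all 5, and Hist1h1b held a pair of further matches. TATAA read in the direction of the gene began 33 to 26 bases before the start site in 4 of the 5, with no match in the Hist1h1c window. Hist1h1d held a pair of further TATAA matches on the reverse strand. In Hist1h1b the TATAA matches on both strands overlap. Among 27025 promoter windows of the same length, 6.22% held AAACACA, 34.5% held CCAAT, 23.5% held TATAA and 0.703% held all 3. Hist1h1b, Hist1h1d and Hist1h1e were in the last class.

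The score genes are described first, as the values that chose the cells. Hist1h1b stood at 708 CPM (molecules of the gene per 1000000 molecules) in the histone-rich vehicle cells and 233 in the other vehicle cells, and at 648 and 213 CPM in the DFO library. Hist1h1a stood at 83.3 against 17.2 CPM in the vehicle library and 77.7 against 16.4 CPM in the DFO library. Hist1h2ae, a core H2A gene, was at 184 against 54.2 CPM and at 187 against 54.2 CPM. For Hist1h2ap, another H2A gene, the levels were 131.6 against 40.6 CPM and 167.5 against 56.5 CPM. A vehicle member held a median of 20 Hist1h1b molecules (range 2 to 97) and a median of 2 Hist1h1a molecules (0 to 15), while 67.2% of the other vehicle cells held no Hist1h1a molecule. The score is continuous at the cut. The lowest member scored 1.66 and the highest cell outside 1.66, 387 cells lay within 0.05 above the cut and 447 within 0.05 below it, and 17.2% of all cells scored 0. The members are therefore a range of the score and not a separate cluster. Hist1h2ap and Hist1h2ae cannot be fully told apart from their relatives: 92.3% of the 91-base windows (the read length) along the Hist1h2ap transcript, and 31.8% of those along Hist1h2ae, also occur in transcripts of other genes in GENCODE M21. For Hist1h1a and Hist1h1b the share was 0%.

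Histone transcripts outside the score went with it. Of the 57 other replication-dependent histone genes listed, 25 reached 5 CPM in the members and 24 of these were higher in the histone-rich cells of both libraries, where 44.8% of all genes were. Over these 25 the median log2 difference, log2((CPM + 1)/(CPM + 1)), was 0.85 in the vehicle and 0.84 in the DFO library, beside 0.01 and 0.02 over 8875 genes. A gene was counted as past the fold where it differed by 0.5 or more on this scale in both libraries with the same sign, at 10 CPM or more. On that rule 39 of 7626 genes were higher (0.511%) and 13 lower (0.17%), and 8 of the 13 other histone genes at 10 CPM or more were among the higher. Because the cells were chosen on histone transcripts, these counts describe the set and were not tested.

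The 3 linker histones outside the score were all past the fold. Hist1h1e stood at 241 against 91.5 CPM in the vehicle library and 205 against 79.1 CPM in the DFO library, log2 differences of 1.39 and 1.36. Hist1h1d was at 58.2 against 20.3 CPM and 46.8 against 17.9 CPM, and Hist1h1c at 73.4 against 31.1 CPM and 55.4 against 26.6 CPM. All 3 were at least 1.03 higher on the log2 scale in both libraries. Within the members 1.69% of the vehicle cells held no Hist1h1e molecule, against 36.8% of the other vehicle cells. In addition 20.9% of the vehicle members held no Hist1h1c molecule, against 52.2% of the other cells, and 26.5% no Hist1h1d molecule, against 64.3%.

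Among the core histones the H2A genes differed most. Hist2h2ac was at 40.6 against 15.6 CPM in the vehicle library and 36.0 against 14.3 CPM in the DFO library, and Hist2h2aa1, Hist1h2ab, Hist1h2af, Hist1h2an and Hist1h2ak, all under 10 CPM, were 0.85 to 1.51 higher. Hist1h2ac and Hist3h2a showed smaller differences, 0.19 to 0.41. The H3 gene Hist1h3c was at 15.9 against 6.95 CPM and 13.8 against 6.88 CPM, while Hist1h3a, Hist1h3d and Hist1h3e were 0.37 to 0.87 higher. Of the H4 genes, Hist1h4d was at 92.5 against 48.9 CPM and 94.1 against 53.8 CPM, and Hist1h4h, Hist4h4 and Hist1h4i were 0.43 to 0.77 higher. The H2B genes were the least uniform. Hist2h2bb, Hist1h2bj, Hist1h2bm, Hist1h2bh and Hist1h2be were 0.22 to 1.17 higher, but Hist1h2bc was lower, at 7.24 against 16.1 CPM in the vehicle library and 8.90 against 13.1 CPM in the DFO library. Many of these short transcripts share sequence: the share of 91-base windows found in other genes was 26.0% for Hist1h1e, 12.1% for Hist2h2ac, 0.668% for Hist1h4d and 31.3% for Hist1h3c. It was higher for the H2A genes under 10 CPM, at 88.5% for Hist2h2aa1, 83.8% for Hist1h2an, 66.3% for Hist1h2af and 53.5% for Hist1h2ab, though 15.8% for Hist1h2ak. Their shared windows include ones of the score genes Hist1h2ae and Hist1h2ap, so these differences are not independent of the choice of cells, and values for single genes within a family are uncertain.

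**Figure D1:**
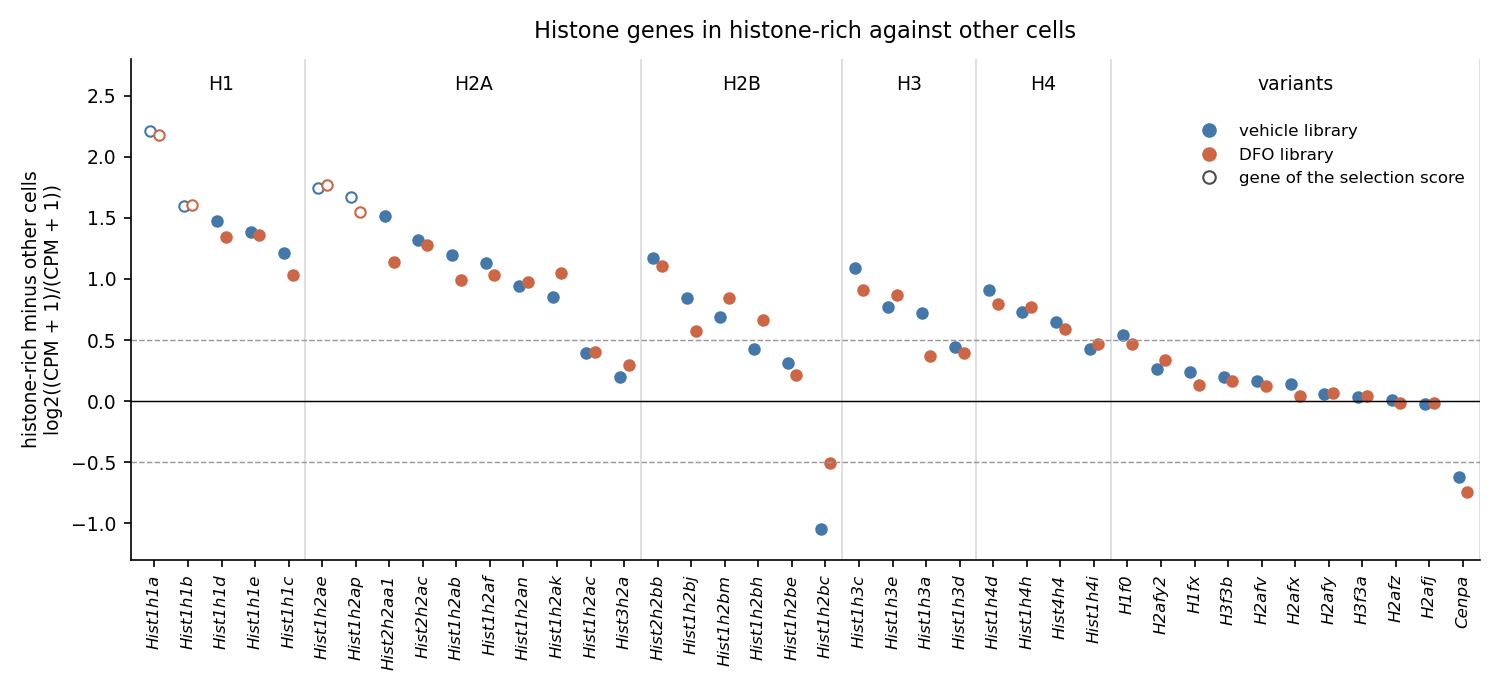
Log2 difference between histone-rich and other cells (y axis) for each histone gene at 5 CPM or more in the members (x axis, by family), 1 point per library, with open points for the 4 genes of the selection score and dashed lines at 0.5 and -0.5. The replication-dependent genes lie above 0 in both libraries except Hist1h2bc, and most variants lie near 0.

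The variants, which do not depend on replication, gave a median difference of 0.14 in the vehicle and 0.06 in the DFO library over 11 genes. H2afz, the H2A.Z gene, was at 3942 against 3919 CPM in the vehicle library and 4261 against 4298 CPM in the DFO library, and H3f3a, an H3.3 gene, at 2605 against 2546 and 2511 against 2433 CPM. H1f0, the replacement linker histone, was higher, at 100.4 against 68.7 CPM and 95.2 against 68.7 CPM. Cenpa, the centromeric H3, was lower, at 187.0 against 288.8 CPM and 165.5 against 277.2 CPM, and it was among the 13 genes past the fold downwards. Cenpa is also one of the G2 and mitosis genes described below. The factors that make and process histone mRNA differed little. Npat was at 29.6 against 26.1 CPM and 28.6 against 26.4 CPM, and Slbp at 223 against 199.8 CPM and 225 against 214.9 CPM. None of the 19 such genes measured passed the fold. The histone chaperones were slightly higher, with 18 of 20 higher in both libraries, where 44.8% of all genes were, and medians of 0.18 and 0.14. They were led by Hjurp, the chaperone of Cenpa (0.42 and 0.33), and Hat1, which acetylates new H4 (0.35 and 0.36).

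Genes of the G1/S boundary were mostly slightly higher in the members, with some lower. Of 35 such genes 26 were higher in both libraries and 9 lower, where 44.8% and 35.3% of all genes were. The medians were 0.16 and 0.16. Cdc45, a part of the replicative helicase, was at 71.7 against 50.4 CPM in the vehicle library and 73.7 against 54.2 CPM in the DFO library. Ung, the uracil glycosylase of early S phase, was lower than in the other cells, at 24.3 against 42.0 CPM in the vehicle library and 31.0 against 47.5 CPM in the DFO library. Orc1, a subunit of the origin recognition complex, was at 7.86 against 11.6 CPM and 8.96 against 13.2 CPM, and Cdc6, which loads the helicase at origins, at 18.9 against 25.6 CPM and 23.6 against 27.5 CPM. Ung and Orc1 passed the fold downwards, the only ones of the 34 G1/S genes at 10 CPM or more to do so, and none passed upwards. Ccne2, a cyclin that starts S phase, differed by -0.01 and -0.07.

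The machinery of the moving fork was also mostly higher. Of 31 genes for polymerases, primase, clamp and fork factors, 25 were higher in both libraries, where 44.8% of all genes were. The medians were 0.24 and 0.19. Pola1, the catalytic subunit of polymerase alpha, was at 71.6 against 48.8 CPM and 72.2 against 48.4 CPM, and Top2a, which untangles replicated DNA, at 645 against 398 CPM and 580.5 against 394 CPM, and both passed the fold. Of the 14 genes of deoxynucleotide supply 11 were higher in both libraries. The thymidine kinase gene Tk1 was at 92.4 against 59.6 CPM and 100.8 against 70.9 CPM. The thymidylate synthase gene Tyms was at 246.6 against 175.0 CPM and 268 against 196.7 CPM. Rrm1, the large subunit of ribonucleotide reductase, stood at 213 against 158.7 CPM and 206.9 against 163.1 CPM, and Rrm2, the small subunit, at 158.9 against 121.6 CPM and 165.6 against 136.1 CPM. Of 20 replication checkpoint and fork repair genes 17 were higher, with Brca1 at 36.2 against 22.2 CPM and 35.5 against 22.4 CPM.

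Late genes also leaned higher, with a smaller group lower. Of 44 genes of G2 and mitosis 27 were higher in both libraries and 9 lower, where 44.8% and 35.3% of all genes were. The medians were 0.17 and 0.07. Of these genes 5 passed the fold upwards, namely Ndc80, Kif11, Mki67, Top2a and Anln, and 4 downwards, namely Cenpa, Ccnb2, Cdc20 and Ube2c. The kinetochore gene Ndc80 was at 51.2 against 29.8 CPM and 46.6 against 28.4 CPM, and the proliferation marker Mki67 at 469 against 285 CPM and 403 against 270.0 CPM. Ccnb2, cyclin B2, was at 107.9 against 164.2 CPM and 97.8 against 155.4 CPM. Cdc20, an activator of the anaphase-promoting complex, was at 146.0 against 215 CPM and 143.7 against 231 CPM, and Ube2c, a ubiquitin-conjugating enzyme of the same complex, at 315 against 458 CPM and 289 against 441 CPM. Among genes at 10 CPM or more in either set, the one furthest down in the members was Cdkn3, a phosphatase that acts on cyclin-dependent kinases, at 29.2 against 60.3 CPM and 25.1 against 56.3 CPM (-1.02 and -1.14). The remaining genes furthest down were Nupr1, 2810001G20Rik and Knstrn, 0.57 to 0.74 lower. These directions hold against all other cells. Against the other cells with an S phase call alone, Cdc20, Cenpa, Knstrn and Ube2c were higher in the members, by 0.44, 0.14, 0.097 and 1.81 in the library with the smaller difference. The S call requires a G2/M list score no higher than the S score, and Cdc20, Cenpa and Ube2c are in that list. The comparison cells were thus chosen partly for low levels of those genes, while members with a G2/M call were kept. For those genes the change of direction was therefore partly set by the call.

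Outside the histones, the 4 genes furthest up were Esco2, Neil3, Rad54b and Ndc80. Esco2, which acetylates cohesin during replication, was at 82.7 against 43.4 CPM in the vehicle library and 83.0 against 46.0 CPM in the DFO library. Neil3, a DNA glycosylase, was at 56.8 against 28.7 CPM and 51.9 against 28.7 CPM. Rad54b, a recombination factor, was at 13.8 against 7.64 CPM and 14.6 against 8.05 CPM.

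For comparison, a G1/S set and a mitotic set were made in the same way, each the top 10% of pooled cells by the mean of 12 genes of that stage. The histone-rich set shared 8.03% of its cells with the G1/S set and 6.36% with the mitotic set, and those 2 sets shared none. Each of those sets holds 10% of all pooled cells, so the first 2 shares were only somewhat below that of all cells. Esco2 was lower in both than in the members, at 50.7 CPM (vehicle) and 50.1 CPM (DFO) in the G1/S set and at 47.1 and 50.2 CPM in the mitotic set. Hist1h1e was likewise highest in the members, with 83.7 and 77.9 CPM in the G1/S set and 107.6 and 92.4 CPM in the mitotic set, both below the 241 and 205 CPM of the members. For Rrm2 the G1/S set was highest, at 220.5 and 223 CPM, the members next and the mitotic set lowest, at 81.9 and 96.6 CPM. Top2a ran the other way, at 248 and 237 CPM in the G1/S set and 759 and 755 CPM in the mitotic set.

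**Figure D2:**
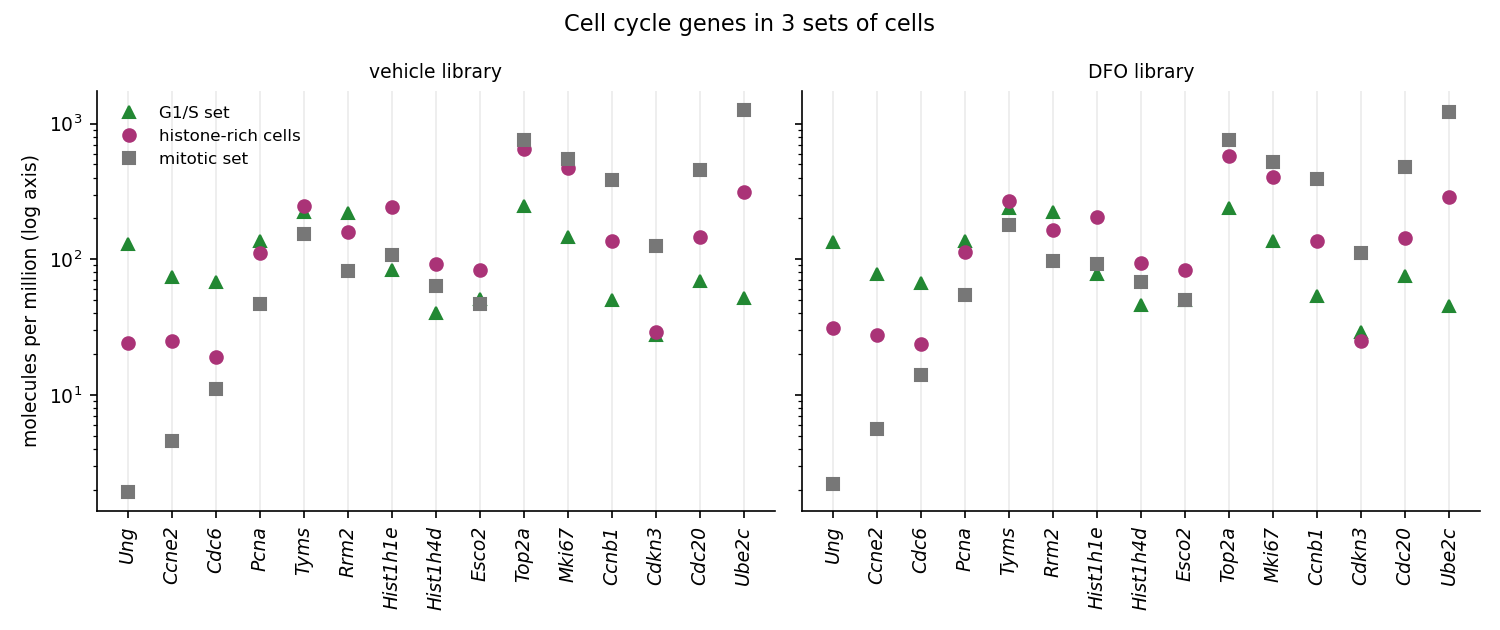
Level in CPM (y axis, log scale) for 15 cell cycle and histone genes in the G1/S set, the histone-rich cells and the mitotic set, for each library. Ung, Ccne2 and Cdc6 were used to choose the G1/S set and Ccnb1, Cdc20 and Ube2c to choose the mitotic set. The histone-rich cells lie between both sets for these 6 genes and above both for Hist1h1e, Hist1h4d and Esco2.

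The position was also read per cell by dividing all cells into tertiles by each of the same G1/S and mitotic scores. Histone-rich cells were frequent where the G1/S score was high and the mitotic score in the middle, at 16.7% of 1021 vehicle cells and 19.5% of 1294 DFO cells. Shares were similar with both scores in the middle, at 14.7% and 17.6%, and with a middle G1/S and a high mitotic score, at 16.1% and 14.6%. The lowest shares were where both scores were low, at 0.355% of 563 and 0.467% of 428 cells, which held medians of only 14548 and 12413 molecules. For cells thinned to 10000 molecules, both the histone-rich cells and the tertiles were chosen again on the thinned values. The shares of the class low in both scores were then 0.897% and 3.41%, still the lowest in each library. Those of the high G1/S and middle mitotic class were 16.7% and 15.9%. Without thinning, the shares were 3.79% and 5.91% with a high G1/S and a low mitotic score. With a low G1/S and a high mitotic score they were 8.23% and 9.28%. A phase call per cell from the longer G1/S plus fork and G2/M lists gave S for 52.5% of the vehicle members and 55.8% of the DFO members, G2/M for 46.5% and 43.1%, and neither for 1.04% and 1.11%. Among the other cells S was called for 40.1% and 44.2%, G2/M for 40.1% and 39.9%, and neither for 19.8% and 15.97%. The phase was also called with every cell thinned to 10000 molecules, for the members as first chosen, which left out 4 vehicle and 11 DFO members. S was called for 49.1% and 54.4% of them and G2/M for 47.7% and 42.4%. In the other cells, thinned alike, S was called for 40.3% and 45.4% and G2/M for 40.4% and 40.8%. The phase calls bear out the label of S phase for only part of the members, so they are named by their histone transcripts here.

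**Figure D3:**
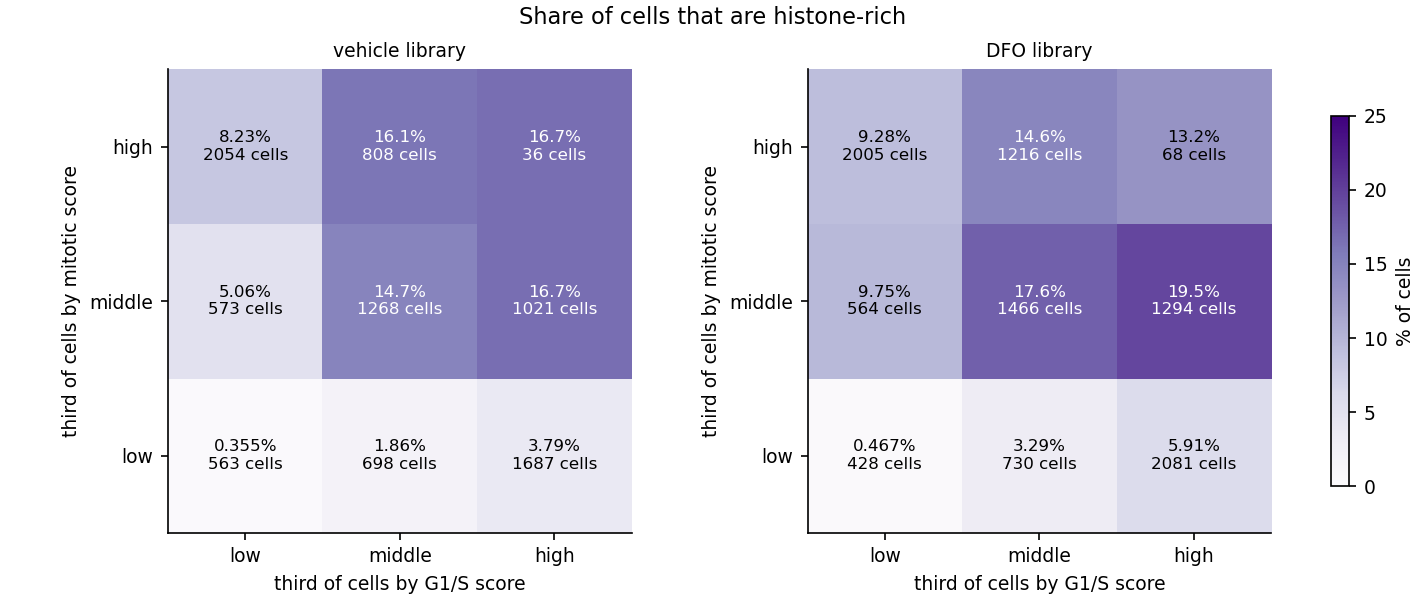
Share of cells that are histone-rich (colour and printed percent, with the number of cells) by tertile of the G1/S score (x axis) and of the mitotic score (y axis), for the vehicle and the DFO library. The share is lowest where both scores are low, and several classes with a middle or high score on both axes have similar high shares. The corner with both scores high holds only 36 vehicle and 68 DFO cells.

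Depth differed along the score, but did not rise steadily with it. By decile of the score, median molecules ran from 23175 in the vehicle and 22636 in the DFO library in decile 3 to 33551 and 31629 in decile 7. In decile 10, the members, they were lower again, at 30156 and 29470. Deciles 1 and 2 hold the cells tied at a score of 0, which were divided by their order in the libraries. The highest median of all, 40837, was in the 246 vehicle cells of decile 2, which scored above 0 (median 0.13). The 1565 vehicle cells of decile 1, with a median score of 0, held a median of 20204 molecules. With the score taken on cells thinned to 10000 molecules, 58.6% of the members were members again, and the shares were 9.33% of vehicle and 10.98% of DFO cells. The members held a median of 30156 molecules in the vehicle library against 27411 in the other cells, and 29470 against 26647 in the DFO library. At 10000 molecules per cell they held a median of 3096 against 3049 genes and 3116 against 3074 genes. Their median mitochondrial share was 3.78% against 3.88% and 4.35% against 4.40%. Cells among the highest 8% of molecule totals of a library, where doublets would lie, were 5.33% of vehicle members against 8.26% of the other vehicle cells, and 4.42% against 8.45% in the DFO library. In all, 24 barcodes occurred in both libraries, among them 2 vehicle and 4 DFO members. The part of depth in the differences between members and other cells was not tested.

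Lineage markers set the members apart little. Of 16 stem cell markers at 5 CPM or more, 4 were higher and 9 lower in both libraries, with medians of -0.04 and -0.03. Of all genes 44.8% were higher and 35.3% lower in both. Ly6a, which encodes Sca-1, was at 66.2 against 85.7 CPM in the vehicle library and 104 against 112.1 CPM in the DFO library, and the stem cell marker Procr was below 5 CPM in the members of both. Of 13 megakaryocyte markers 10 were lower in both, where 35.3% of all genes were, with medians of -0.05 and -0.16. The summed levels of the neutrophil and monocyte list were 226 CPM in the members against 269.5 CPM in the vehicle library and 212 against 248 CPM in the DFO library. Mpo, the granule peroxidase of that lineage, stood at 1.51 against 5.64 CPM and 1.30 against 5.03 CPM. Summed markers were 910 against 959 CPM and 898 against 913 CPM for the erythroid list, 24.1 against 26.0 CPM and 25.9 against 27.2 CPM for the lymphoid list, and 58.4 against 63.3 CPM and 58.0 against 60.3 CPM for stroma and endothelium. Mast cell and basophil markers summed to 43.9 against 46.1 CPM and 45.5 against 48.1 CPM, most of it Kit, and macrophage and dendritic cell markers to 52.2 against 52.8 CPM and 47.2 against 44.2 CPM. In the members 2 of the 9 neutrophil and monocyte markers, 1 of the 8 mast cell and 1 of the 7 stromal markers were at 0. The part of the lineage differences in the other values was not tested.

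The members made up 8.84% of the vehicle cells (8.25 to 9.46) and 11.02% of the DFO cells (10.4 to 11.7), a difference of 2.18 percentage points (Newcombe interval 1.32 to 3.04). The sign of this difference rested on 1 gene. With Hist1h2ap left out of the score and the top 10% taken again, the shares were 10.3% of vehicle and 9.76% of DFO cells, a difference of -0.50 points. With each of the 4 genes centred on its own library's mean, they were 10.0% and 9.99%. Centring removes mean differences between the libraries in these genes, so near-equal shares were largely set by it. Leaving out Hist1h1a gave a difference of 3.63 points, leaving out Hist1h1b 3.48 and leaving out Hist1h2ae 2.61. Hist1h2ap was higher in the DFO library in members (log2 difference 0.35, interval 0.29 to 0.41) and in the other cells alike (0.47), while Hist1h1a and Hist1h1b were slightly lower in both. The shares with the 4 genes were 9.26% of vehicle and 11.5% of DFO cells among female cells, and 9.07% and 11.6% among male cells, told apart by Xist and Y-linked transcripts. No difference in the number of histone-rich cells that holds for each choice of histone was seen.

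**Figure D4:**
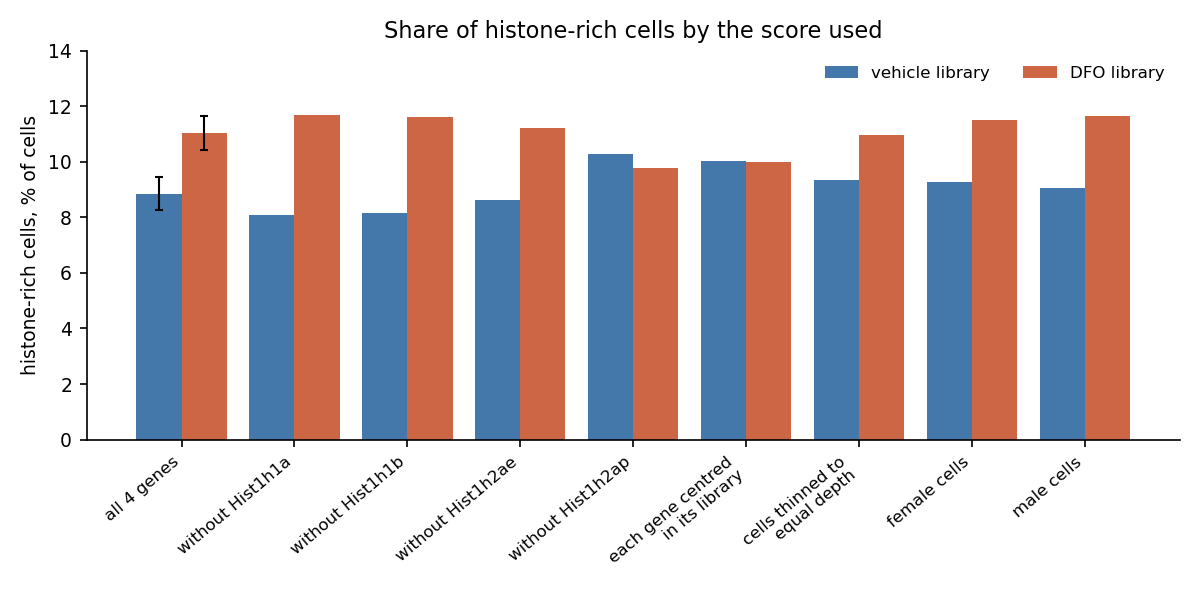
Histone-rich cells as a percentage of each library (y axis) under the score of 4 genes, with each gene left out in turn, with each gene centred in its library, on thinned cells and within each sex. Bars are the vehicle and DFO libraries, and the error bars on the first pair are exact 95% Clopper-Pearson intervals. The DFO bar is the higher one except without Hist1h2ap and with centred genes, where centring itself removes mean differences between the libraries.

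Inside the histone-rich set, the replication-dependent histones outside the score differed little between DFO and vehicle. Their median log2 difference was -0.04 over 25 genes, beside 0.02 over 8875 genes, with 12 higher and 13 lower, where 56.6% of all genes were higher and 43.4% lower. In the whole set of members, 11 of 7525 genes were 0.5 or more higher with DFO (0.146%) and 54 lower (0.718%), and none of the histone genes was among them. With the members taken as the top 10% of each library, the median was 0.01, so its sign was not stable.

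The families did not move alike. The 3 linker histones outside the score were lower in the DFO members. Over all 5, which include the score genes Hist1h1a and Hist1h1b, the median was -0.23. It lay between -0.27 and -0.15 under the 20 settings tried. Hist1h1c went from 73.4 to 55.4 CPM (-0.40, interval -0.50 to -0.31), Hist1h1d from 58.2 to 46.8 CPM (-0.31, -0.42 to -0.21) and Hist1h1e from 241 to 205 CPM (-0.23, -0.29 to -0.18). In the other cells the differences of the 3 genes were -0.22, -0.18 and -0.21. Across these settings Hist1h1c lay between -0.49 and -0.28 in the members, Hist1h1d between -0.40 and -0.12 and Hist1h1e between -0.27 and -0.16. Hist1h1a and Hist1h1b, whose values helped to choose the cells, differed by -0.10 and -0.13, with Hist1h1a between -0.18 and 0.01 across the settings. The core genes included some higher with DFO, among them Hist1h2bh from 8.43 to 11.9 CPM (0.45). All 4 H4 genes were also higher, by 0.02 to 0.16, of which Hist1h4d ran from -0.09 to 0.10 across the settings. The H4 median was 0.10 in the members and 0.13 in the other cells. The lowest core gene was Hist1h3a, from 6.22 to 4.30 CPM (-0.45).

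The enzyme that DFO is known to inhibit differed little at the transcript level. Rrm1 went from 213 CPM in the vehicle members to 206.9 CPM in the DFO members (-0.04, interval -0.09 to 0.01), and Rrm2 from 158.9 to 165.6 CPM (0.06, 0.00 to 0.12). Rrm2b, the small subunit induced by p53, went from 9.49 to 10.7 CPM. The 14 genes of deoxynucleotide supply, Rrm1 among them, were mostly slightly higher. Of these 12 were above 0, with a median of 0.11, against 0.16 in the other cells. They were led by Dctd, deoxycytidylate deaminase, from 50.6 to 58.3 CPM, and Shmt1, from 59.7 to 67.8 CPM. Replication checkpoint genes split evenly, with 10 higher and 10 lower, where 56.6% of all genes were higher and 43.4% lower. Cdc25a, the phosphatase that frees Cdk2, went from 32.3 to 38.2 CPM and Chek1, the checkpoint kinase, from 23.7 to 27.1 CPM, while Fanci went from 7.53 to 5.96 CPM and Blm, a helicase, from 65.5 to 55.5 CPM. Inhibitors and brakes of the cycle were mostly lower with DFO, with 9 of 10 lower and a median of -0.13, against -0.15 in the other cells. Btg2, an antiproliferative p53 target, went from 15.6 to 9.11 CPM (-0.71), past the fold, and was also lower in the other cells (-0.63). Cdkn1a, the p53 target that inhibits Cdk2, was the highest of that list, at 38.5 and 41.2 CPM. Of 9 p53 targets 4 were higher and 5 lower, with a median of -0.03 and Btg2 lowest.

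Along the cycle, G1/S genes were mostly higher and G2/M genes mostly lower in the DFO members. Of 35 G1/S genes 29 were higher with DFO, where 56.6% of all genes were, with a median of 0.09. Ung went from 24.3 to 31.0 CPM (0.34, interval 0.20 to 0.50) and Cdc6 from 18.9 to 23.6 CPM (0.31, 0.15 to 0.49). Of 44 G2/M genes 33 were lower, where 43.4% of all genes were, with a median of -0.09. Mki67 went from 469 to 403 CPM (-0.22) and Top2a from 645 to 580.5 CPM (-0.15), and the lowest were Ckap2l (-0.48) and Nusap1 (-0.24). Ckap2l was as low in the other cells (-0.52). In the other cells the G1/S median was 0.09 and the G2/M median 0.00, and Mki67 and Top2a differed by -0.08 and -0.01. For 40 of the 44 G2/M genes the value in the members was below that in the other cells. The median over the G2/M genes stayed below 0 in the members under all 20 settings, from -0.14 to -0.03. Inside the members no G1/S or G2/M gene passed the fold between the libraries.

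Megakaryocyte genes were prominent among the differences between the DFO and vehicle members. Of 13 megakaryocyte markers at 5 CPM or more all 13 were lower with DFO, where 43.4% of all genes were. Of them 7 were lower by 0.5 or more, where 0.718% of genes at 10 CPM or more were. Their median was -0.73 in the members and -0.53 in the other cells. Pf4, the platelet chemokine, stood at 1248 CPM in the vehicle members and 390 CPM in the DFO members (-1.67), and at 1468 and 619 CPM in the other cells (-1.25). A few cells carried most of it: the 5% of members with the most Pf4 held 52.8% of its molecules in the vehicle library and 53.9% in the DFO library. The median member held 7 Pf4 molecules with vehicle and 3 with DFO. Ppbp, a second platelet chemokine, went from 10.4 to 2.78 CPM in the members, Treml1, a receptor of platelet granules, from 21.4 to 7.08 CPM, and Gp5, a subunit of the von Willebrand factor receptor, from 37.1 to 17.5 CPM. Itga2b, integrin alpha IIb, went from 121 to 72.2 CPM. The transcription factor Gata1 went from 23.7 to 11.9 CPM (-0.93), and from 24.0 to 15.3 CPM in the other cells (-0.62). Under all 20 settings the median of the megakaryocyte genes and the value of Gata1 were further below 0 in the members than in the other cells. Among male cells alone the medians were -0.56 and -0.53 and the values of Pf4 -1.27 and -1.20, so for these members and other cells were close. Gata1 and Gp5 were further down in the male members, at -0.88 against -0.56 and -0.95 against -0.78.

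The gene furthest down in the DFO members at 10 CPM or more was 2610528A11Rik, from 16.2 to 4.03 CPM (-1.78), which is in none of the lists. The 10 furthest down also held Cavin2, Ccdc180, Samd14, Tesc, Alox5 and Timp3, which were 1.07 to 1.14 lower on the log2 scale. Alox5 encodes 5-lipoxygenase, Timp3 an inhibitor of matrix proteases and Cavin2 a protein of caveolae. At the upper end no gene reached 1. Ly6a went from 66.2 to 104 CPM in the members (0.65, interval 0.57 to 0.74) and from 85.7 to 112.1 CPM in the other cells (0.38). Cox4i2, an isoform of a cytochrome c oxidase subunit, went from 23.6 to 37.2 CPM (0.64) and Pnp2, a purine nucleoside phosphorylase, from 12.5 to 19.5 CPM (0.60). The mitochondrially encoded mt-Nd3 went from 716 to 1031 CPM (0.53), close to its 0.55 in the other cells. Of the 13 mitochondrially encoded genes 12 were higher, where 56.6% of all genes were. Epb41l4b, Usp50, Cacna1a, Lair1, Grb10 and Coprs, 0.50 to 0.58 higher, completed the upper end.

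All 65 genes past the fold in the members had the same sign in the other cells, and 34 were past it there too. In the other cells 1 gene of 7472 was 0.5 or more higher (0.0134%) and 41 were lower (0.549%). The members' sums held 24437045 molecules in the vehicle and 33042163 in the DFO library, against 236501893 and 251283854 in the other cells, and their values scattered more, with an SD over genes of 0.16 against 0.12.

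**Figure D5:**
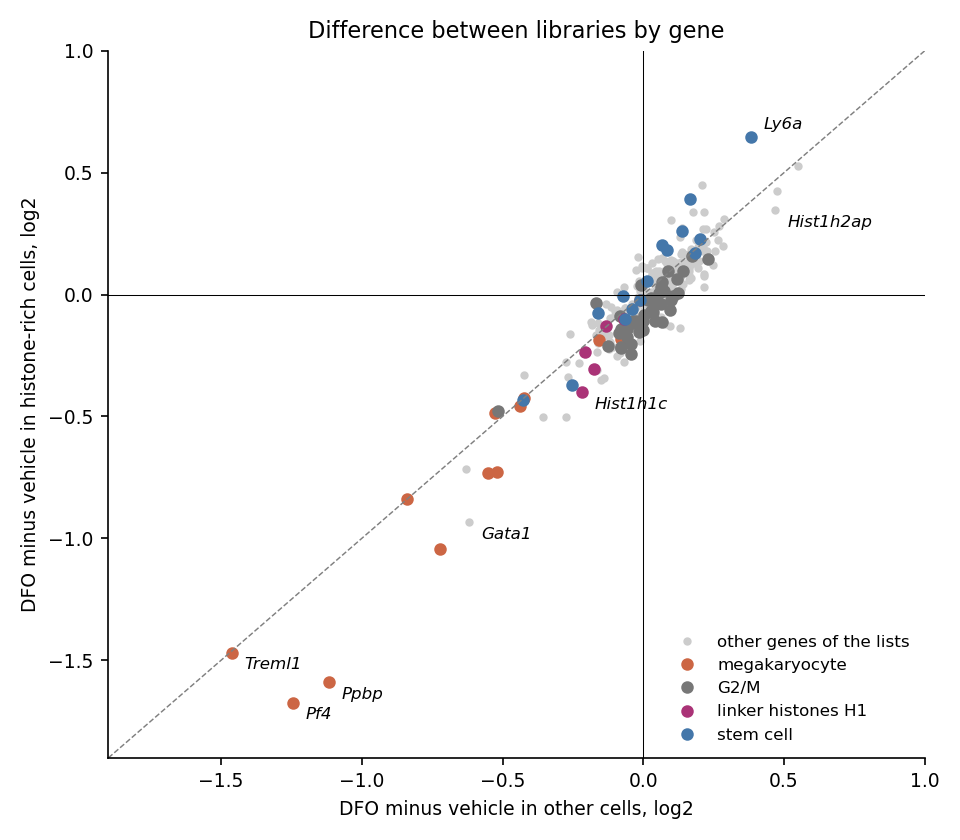
Log2 difference of DFO against vehicle in the histone-rich cells (y axis) and in the other cells (x axis), 1 point per gene of the lists at 10 CPM or more in the members of either library, with 4 lists coloured and the dashed line where both are equal. Pf4, Ppbp and Gata1 lie below the line, Ly6a above it, and most G2/M genes lie slightly below it.

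Stem cell, iron and hypoxia genes differed by less. Of 16 stem cell markers 9 were higher with DFO and 7 lower, close to the shares over all genes, 56.6% higher and 43.4% lower. Their median was 0.11 in the members and 0.00 in the other cells. Hlf, a transcription factor of stem cells, went from 51.5 to 67.9 CPM (0.39), and Pdzk1ip1 went from 23.2 to 16.9 CPM (-0.43). Tfrc, the transferrin receptor, whose mRNA is stabilised when iron is low, went from 50.9 to 64.6 CPM in the members (0.34, interval 0.24 to 0.45) and from 58.5 to 68.1 CPM in the other cells (0.22). The 14 iron genes together had a median of 0.07. Of 20 hypoxia genes 17 were lower with DFO, with a median of -0.18 and the glucose transporter gene Slc2a3 lowest, from 88.8 to 62.3 CPM (-0.50). Of 28 MYC targets 24 were higher, with a median of 0.11, against 0.12 in the other cells. Myc itself, from 86.4 to 104 CPM, was at the upper end and Ldha, lactate dehydrogenase A, from 1406 to 1249 CPM, at the lower.

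The members were also divided into tertiles by their own score. From the lowest to the highest tertile Hist1h1e, which the score does not use, ran from 224 to 272 CPM in the vehicle library and from 189 to 237 CPM in the DFO library, and Mki67 from 432 to 545 CPM and from 379 to 452 CPM. Ung ran down, from 26.5 to 22.1 CPM and from 35.4 to 25.2 CPM. Rrm2 differed less, from 151 to 166 CPM in the vehicle library and from 163 to 169.6 CPM in the DFO library. The difference of Pf4 between the libraries was present in each tertile, with 1333 and 400.2 CPM in the lowest and 1199 and 381 CPM in the highest.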

How the data were processed

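Cells of 2 libraries, 1 per group, were analysed. Per the labels' protocols they were prepared with 10x Genomics 3′ v3 chemistry and sequenced on 2 lanes each. The submitters' processing notes name FastQC 0.11.9, Trim Galore 0.6.5, Cell Ranger 3.0.2 and the build mm10. Neither they nor the labels say how cells were filtered or how reads that match several genes were handled. The authors deposited natural log values per gene and cell, found from the values to be ln(1 + 27408 × molecules / total of the cell), and all nonzero values gave whole molecules within 0.05. The totals are 260938938 vehicle and 284326017 DFO molecules over 14366 genes.

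Molecules were summed per set and library, scaled to CPM, and compared with a pseudocount of 1. The arithmetic was tested on simulated data. Genes at 10 CPM or more entered counts and list genes at a mean of 5 CPM. A phase was called from the higher of 2 standardised list scores where it was above 0. Female cells had 5 or more Xist molecules and no Y-linked one, and male cells at most 1 Xist and 2 or more Y-linked molecules. Promoters were matched to symbols through RefSeq synonyms and position, and all 5 matched. No test was run, with 1 library per group. Doublets were not called, and the highest 8% of molecule totals were left out as an alternative. Other alternatives changed the score, cut, depth, cell filter, pseudocount and minimum.

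The members and lists were chosen with earlier results of these data known. Any gene of the lists could be named. The text gives the histones at 5 CPM or more, genes from the ends of the other lists, though not both ends of each list, a fixed set of genes, and the 10 genes at each end of both comparisons. Python 3.11.15, numpy 2.4.6, scipy 1.17.1, pandas 2.3.3 and matplotlib 3.10.9 were used.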

Additional observations from a re-analysis of the deposited data

How the results depend on the processing

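The difference in the share of histone-rich cells, 2.18 percentage points, was 3.63 without Hist1h1a, 3.48 without Hist1h1b, -0.50 without Hist1h2ap and -0.026 with centred genes. The value with centred genes was largely set by the centring, which removes mean differences between the libraries in the score genes. The 52 genes past the fold between histone-rich and other cells were 19 with a pseudocount of 10, 84 as means of each cell's CPM, 92 with no minimum and 189 against other cells with an S phase call. Against those cells Cdc20 differed by 0.44, Cenpa by 0.14, Knstrn by 0.097 and Ube2c by 1.81, in place of values below 0. The S phase call uses the G2/M list, which holds Cdc20, Cenpa and Ube2c, so their change was partly set by the choice of cells. The 65 genes past the fold between DFO and vehicle members were 145 for the top 5% of cells, 32 with a pseudocount of 10, 40 with a minimum of 20 CPM, 238 with no minimum and 118 in male cells. The histone median of -0.04 was 0.015 with the top 10% of each library and 0.014 with centred genes. The centred score and the split by sex were chosen after seeing the data. Of the values recomputed for single genes, 630 moved by less than their counting interval, 226 by more and 4 reversed. No paired analysis was possible because each group has 1 library. Depth limits the rare histone genes: 32 of the 57 outside the score lay below 5 CPM.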
